A study of Homo sapiens with 8 samples.

Results

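The olfactory receptor gene clusters examined here are 9 stretches of the human genome (build hg19), 12.2 Mb in all, that hold large arrays of odorant receptor genes. On chromosome 11 they are chr11:4400001-6200000 (11p15), chr11:48200001-51600000 (11p11), chr11:54700001-56800000 (11q11-q12), chr11:57800001-59300000 (11q12) and chr11:123600001-124500000 (11q24). The others are chr1:247600001-248900000 (1q44), chr9:107200001-107500000 (9q31), chr14:20200001-20700000 (14q11) and chr17:3000001-3400000 (17p13). Members are the regions of the deposited table that overlap a window by at least 1 base, whatever their values. There were 161 of them among 34703 regions, and 5 reached past a window's edge. The table names no genes and an hg19 annotation was not used here, so each region is given by position and no region is assigned to a receptor gene.

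The libraries are ChIP-seq of 2 histone marks in HAP1, a human line with a nearly haploid genome that came from KBM-7, a chronic myelogenous leukaemia line. H2AK119ub denotes histone H2A with a single ubiquitin on a lysine near its tail, and H3K27me3 is histone H3 with 3 methyl groups on a lysine of its tail. Each mark was profiled in RING1A/B-DKO cells, called knockout below, and in Wild-type-control HAP1 cells, with 2 libraries per mark and genotype, 8 in all. The knockout was made with CRISPR plasmids against RING1B (gene RNF2) in a HAP1-RING1A-KO line and grown from single sorted cells, and clones were screened for loss of RING1B by immunoblotting, so a knockout line descends from 1 cell. The protocol calls the samples biological duplicates. The number of knockout clones behind them is not stated in the labels, so a p-value speaks for these cultures and the difference between clones is not measured. The labels and the protocol name different H3K27me3 antibodies.

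RING1A and RING1B are the catalytic subunits of Polycomb repressive complex 1, which puts ubiquitin on H2A. Polycomb repressive complex 2 writes H3K27me3, and one form of it binds ubiquitinated H2A through accessory subunits. In mammals both complexes concentrate at CpG islands, stretches of DNA dense in the dinucleotide CG, and lower levels of both marks extend over silent DNA between them. Olfactory receptors are the G-protein-coupled receptors by which sensory neurons of the nose detect odorants. They form the largest mammalian gene family, each mature neuron expresses a single receptor allele, and in most other cells most receptor genes are silent. In mouse olfactory neurons the silent receptor genes carry the heterochromatin marks H3K9me3 and H4K20me3, which were not measured here.

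The receptor promoters themselves are poor in CG. RefSeq (GRCh38.p14) lists 433 genes with receptor symbols in these clusters, 230 of them protein-coding, matched by symbol and neighbourhood and not by hg19 position. Among the 185 with a promoter entry, the 250 bases before the start held a median of 1 CG, against 11 over all 27305 promoters. At most 5 CG were found in 177 of the 185 (95.7%), against 38.7% of all promoters, and the median GC content was 36.8% against 58.0%. The 17p13 genes were the richest, with a median of 3 CG and up to 31 over 9 promoters. The sequences below are the first receptor gene with an entry along the chromosome in 3 clusters that differ in the results: 9q31, where H3K27me3 gained most, 14q11, where the table holds no region, and 1q44, where H3K27me3 showed no net gain. They are RefSeq promoters of OR13F1 (chromosome 9, + strand, 2 CG), OR4Q3 (chromosome 14, + strand, 1 CG) and OR2B11 (chromosome 1, − strand, 4 CG). Each is written 5′ to 3′ on the strand of its gene, with the CG in capitals.
OR13F1: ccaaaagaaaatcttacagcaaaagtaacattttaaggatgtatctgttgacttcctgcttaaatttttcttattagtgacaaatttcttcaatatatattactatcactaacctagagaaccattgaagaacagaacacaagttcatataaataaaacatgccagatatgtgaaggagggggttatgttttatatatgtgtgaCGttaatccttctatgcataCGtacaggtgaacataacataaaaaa
OR4Q3: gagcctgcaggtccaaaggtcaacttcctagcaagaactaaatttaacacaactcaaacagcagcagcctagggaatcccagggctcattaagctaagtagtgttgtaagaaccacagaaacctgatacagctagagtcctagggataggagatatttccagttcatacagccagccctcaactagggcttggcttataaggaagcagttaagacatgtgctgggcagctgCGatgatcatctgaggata
OR2B11: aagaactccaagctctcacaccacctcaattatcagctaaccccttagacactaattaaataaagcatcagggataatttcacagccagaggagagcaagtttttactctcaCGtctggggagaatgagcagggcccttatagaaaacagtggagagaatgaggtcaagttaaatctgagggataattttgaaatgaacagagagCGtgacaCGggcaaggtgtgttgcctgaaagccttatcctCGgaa
CG was searched as these 2 letters, which read the same on both strands. The count describes these windows of sequence and says nothing of which factors bind there.

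Taken as a group, the clusters held about as many regions as other autosomal DNA. They had 13.2 regions per Mb, against 11.9 in the rest of the autosomes (33017 regions in 2773 Mb), a ratio of 1.11. The regions covered 16.8% of the windows and 16% of the rest of the autosomes, and their median width was 7.2 kb against 6 kb. Within 1 Mb to either side of the windows there were 9.41 regions per Mb. The rest of chromosome 11 had 14.5 and chromosome 4 had 9.51. The zinc finger gene clusters of chromosome 19, another tandem gene family, had 5.98 regions per Mb and 3.53% of their length covered. The regions are 1 set shared by all libraries, so these counts have no replicate error and no test.

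The average hides clusters that differ widely. The 9q31 window had 36.7 regions per Mb (11 regions), 17p13 had 35.0 (14), 11q24 had 27.8 (25), 11p15 had 25.0 (45) and 11q12 had 23.3 (35). The 1q44 window stood near the autosomal rate with 13.8 (18 regions). The remaining 3 were nearly bare: 4.29 in 11q11-q12 (9 regions), 1.18 in 11p11 (4 regions) and 0 in 14q11. For scale, autosomal tiles of 1 Mb held a median of 12 regions, with 10th and 90th percentiles of 1 and 24. Of the 2782 tiles, 344 (12.4%) held 23 or more, with a maximum of 41, and 264 (9.49%) held 0. The tiles include the windows themselves, 12.2 Mb in all, and tiles at centromeres were not left out. Rates of 23 per Mb or more are thus found elsewhere too. How common bare stretches are in other sequenced DNA cannot be read from the empty tiles. How many tiles were as dense as 9q31 or 17p13 was not counted, and these 2 windows are shorter than a tile. Leaving out the 11p11 window alone changed the ratio to the rest of the autosomes to 1.5, and against the rest of chromosome 11 only it was 0.909.

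**Figure D1:**
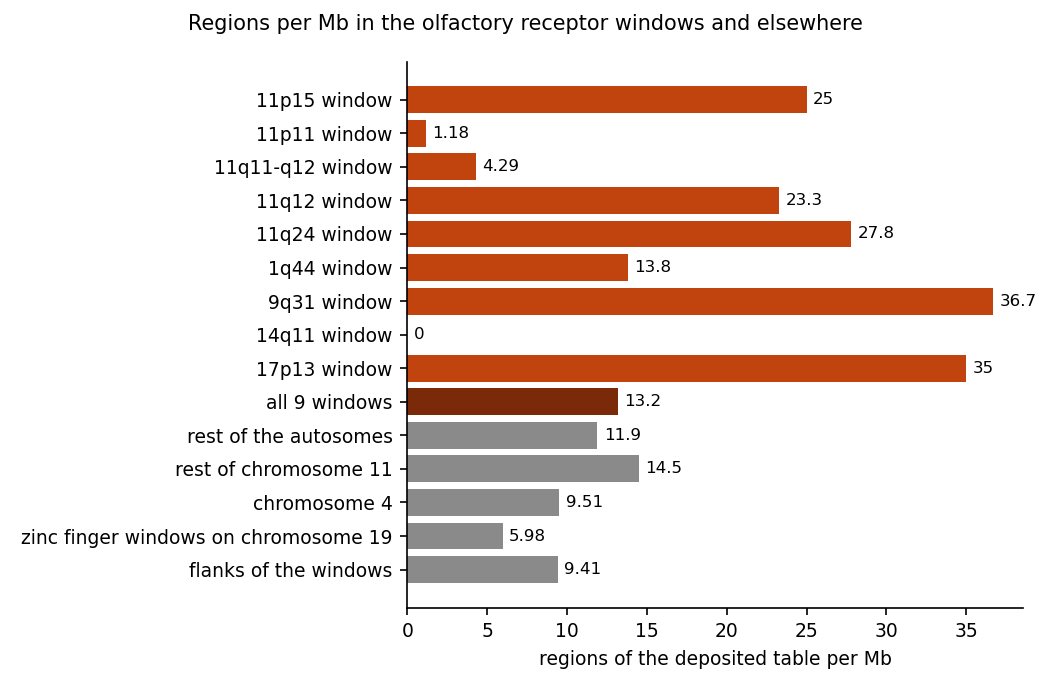
Regions of the deposited table per Mb (horizontal axis) in each olfactory receptor window, in all 9 windows together (dark bar) and in 5 other parts of the genome (grey bars). The windows run between 0 at 14q11 and 36.7 at 9q31, while all 9 together, at 13.2, lie close to the rest of the autosomes at 11.9.

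Covered length separated the clusters further. Regions covered 67.9% of the 11q24 window and 53.1% of 17p13, in which the longest stretches between regions were 30.0 kb and 57.8 kb. The widest member, chr11:124354001-124492400, spanned 138 kb of 11q24, and chr11:123882201-123986200, which was chosen after its values were seen, spanned 104 kb. By contrast 1.32% of 11p11 and 2.28% of 11q11-q12 were covered. All 4 members of 11p11 lay near the window's start, and the next region of the table beyond 48347400 began at 55707801, a gap of 7.36 Mb that spans the centromere. Around the 14q11 window the gap was 1.10 Mb, from 19795600 to 20892201. The 1q44 window had a gap of 410 kb after position 248111400. A bare stretch holds no region of the table, which does not show that a mark is absent there.

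H2AK119ub was nearly gone from the clusters in the knockout. Summed over the 161 members it was 63 and 77 normalized counts in knockout libraries, against 4536 and 6061 in wild type. A normalized count is the authors' own scaled whole-number read count for a region, and per covered kb these sums are 0.0307 and 0.0376 in knockout and 2.21 and 2.96 in wild type. The groups did not overlap, and 1.32% of the wild-type level was left (1.04% to 1.70% over pairs of libraries; exact two-sided permutation p = 0.33, the smallest that 2 against 2 libraries can give). In the rest of the autosomes 1.10% was left. Of the members, 93 (57.8%) were at 0 in both knockout libraries, against 54.7% of all regions, and the highest knockout value of any member was 8. No member was at 0 in a wild-type library.

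Of the 161 members, 105 passed the filter on low values for H2AK119ub (at least 2 libraries at 10 or more and a sum of at least 15), which they can pass only through the wild-type libraries. All 105 fell (limma on log2 of the normalized count + 1, Benjamini-Hochberg adjusted p at most 0.05 over all 23700 regions tested), and so did 100% of all regions tested (23699). Their median log2 fold change was -4.54, against -4.74 over all regions. Without wild-type replicate 1 or wild-type replicate 2 only 59 of them were called (56.2%, against 52.3% and 52.2% of all regions), and 50 were called when the libraries were scaled to each other (47.6%, against 42.9% to 46.9%). The calls therefore do not tell the clusters from other regions. In wild type the clusters were low in this mark: the summed density was 0.639 and 0.721 times that of the rest of the autosomes. In the knockout libraries the same ratio was 0.821 and 0.820, a difference of 0.27 on the log2 scale (exact permutation p = 0.33). The median member stood at the 25.3rd percentile of all regions in wild-type H2AK119ub per kb, at 2.43 normalized counts per kb against a median of 3.22.

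Between clusters, wild-type H2AK119ub was highest at 1q44, with 3.91 and 4.6 normalized counts per kb. It was 2.43 and 3.62 at 11q11-q12, 2.56 and 3.33 at 11p11, 2.44 and 3.11 at 11q12 and 1.95 and 2.71 at 11q24. At 9q31 it was 1.64 and 3.07, at 17p13 1.9 and 2.52 and at 11p15 1.83 and 2.53. The 1q44 libraries lay above every library of the other clusters. Among the others, both 11p11 libraries lay above both of 17p13 and of 11p15, and all other pairs of clusters overlapped. In the knockout all clusters stood at 0.0889 normalized counts per kb or less, and 11q11-q12 was listed at 0 in both libraries (116 and 173 in wild type). Of the clusters with any count in a knockout library, 1q44 had the lowest share left, 0.718% (0.613% to 0.841% over pairs). This share rests on knockout sums of 6 and 7. Its range overlapped those of 17p13 (0.748% to 1.74%) and 11p11 (0.667% to 3.48%) and met that of 9q31 (0.84% to 2.36%). The 1q44 knockout densities of 0.0282 and 0.0329 lay within the range of the other clusters.

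H3K27me3 moved the other way. Summed over the members it was 8.26 and 6.82 normalized counts per covered kb in the knockout (7.54 ± 1.02, SD, n = 2), against 3.88 and 3.91 in wild type (3.89 ± 0.0228, SD, n = 2). Both knockout libraries lay above both wild-type libraries, 1.94 times as high (1.74 to 2.13 over pairs). In the rest of the autosomes the density was 7.65 ± 0.865 in the knockout and 5.32 ± 0.100 in wild type (SD, n = 2 each), 1.44 times as high (1.30 to 1.57). The clusters were thus level with the rest in the knockout and below it in wild type. Relative to the rest of the autosomes within a library, their density was 1.00 and 0.970 in the knockout, against 0.738 and 0.725 in wild type, a difference of 0.43 on the log2 scale (exact permutation p = 0.33, the smallest possible). This ratio does not depend on how libraries were scaled to each other. The difference was 0.33 against the rest of chromosome 11, 0.38 against chromosome 4 and 1.06 against the zinc finger clusters, with no overlap of the genotypes in each. The clusters held 0.447% and 0.434% of all H3K27me3 counts in the knockout and 0.332% and 0.326% in wild type, on 0.446% of the covered length.

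**Figure D2:**
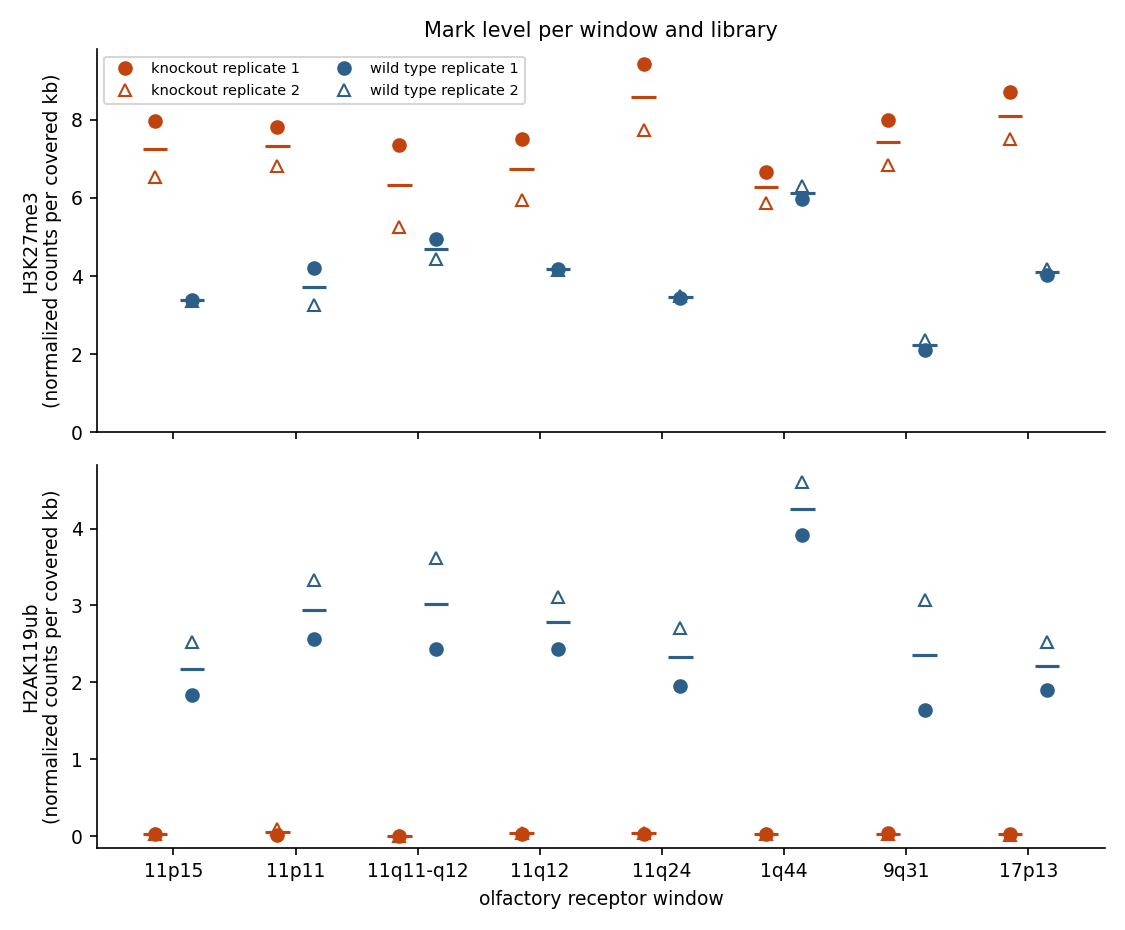
H3K27me3 (top) and H2AK119ub (bottom) in normalized counts per covered kb, for each olfactory receptor window that holds regions. Circles and triangles are the libraries of knockout (left, orange) and wild type (right, blue), and lines are means of 2. H3K27me3 of knockout lies above wild type in 7 of the windows and overlaps it at 1q44, while H2AK119ub of knockout is at most 0.0889 throughout.

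Region by region, 152 of the 161 members passed the filter for H3K27me3. Of these, 111 rose (73.0%), against 47.3% of all 32209 regions tested, and 8 fell (5.26%), against 22.8%; 33 were not called (limma, Benjamini-Hochberg adjustment over all regions). By more than 1 on the log2 scale 82 rose (53.9%), against 33.0% of all regions. The median log2 fold change was 1.09 (1.18 and 0.94 for knockout replicates 1 and 2), against 0.58 over all regions and 0.55 in the rest of the autosomes. In the rest of the autosomes 46.4% rose and 23.2% fell, and in the rest of chromosome 11 these shares were 50.6% and 20.1%. Both knockout libraries lay above both wild-type libraries in 123 members, against 56.2% of all regions tested, below them in 10, against 28.0%, and 19 overlapped. In the flanks of the windows 44.5% of tested regions rose and 16.1% fell. On chromosome 4 these shares were 56.0% and 19.7%, and in the zinc finger clusters 20.7% and 36.2%.

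With no filter, all 161 members entered the fit, of which 111 rose (68.9%) and 9 fell, against 43.9% rising over the whole table. The number of calls depended on the libraries and on the scaling, and the excess over other regions less so. With libraries scaled to each other by column totals, median-of-ratios or TMM factors, the median change of all regions shifted to 0.06, 0.08 and 0.11, and that of the members to 0.57, 0.59 and 0.62. Then 68, 68 and 70 members rose and 12 fell under each, which is 44.7% to 46.1% rising, against 29.8% to 32.0% of all regions. Over all regions the split was 15228 higher and 7338 lower as deposited, and 9614 and 10907 with column totals, 9860 and 10759 with median-of-ratios factors and 10296 and 10546 with TMM factors. Without knockout replicate 1, 34 members rose and 6 fell, and without knockout replicate 2 these counts were 58 and 2. In these fits 22.4% and 38.2% of tested members rose, against 13.9% and 25.3% of all regions. Without wild-type replicate 1 or wild-type replicate 2 limma called no region of the whole table. With unadjusted p-values below 0.05 these fits held 78 members higher and 2 lower, and 68 and 3. That is 51.3% and 44.7% of tested members higher, against 31.1% and 31.9% of all regions, and 1.32% and 1.97% lower, against 15.1% and 15%. The median of the members then stayed at 1.08 and 0.99.

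In a fit of all 8 libraries the knockout effect on H3K27me3 exceeded that on H2AK119ub in 150 of 155 members tested, against 93.7% of all regions (limma, Benjamini-Hochberg adjustment). The median difference of the effects was 5.07 on the log2 scale, against 4.56 over all regions. With libraries scaled to each other 75 to 83 members were called in this direction (48.4% to 53.5%), against 43.1% to 47.8% of all regions.

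The gain was largest at 9q31, a small cluster of receptors of the OR13 family. Its density was 7.99 and 6.84 normalized counts per kb in the knockout, against 2.11 and 2.36 in wild type, 3.32 times as high (2.90 to 3.78 over pairs). Of its 11 members 10 rose and 1 was not called, and the median log2 fold change was 1.71. The wild-type level was the lowest of the clusters, and the knockout level was not high among them. Relative to the rest of the autosomes the density was 0.967 and 0.973 in the knockout and 0.402 and 0.437 in wild type, a difference of 1.21 (exact permutation p = 0.33). The largest change of any member was at chr9:107243401-107247200, with 29 and 20 normalized counts in knockout and 3 and 5 in wild type (log2 fold change 2.36, SE 0.53, adjusted p = 5.9e-05, limma). The widest member, chr9:107211401-107224800, had 96 and 75 in knockout and 25 and 26 in wild type (1.70, SE 0.27, adjusted p = 3.23e-08, limma). The smallest change of the cluster was 34 and 21 against 17 and 17 at chr9:107474801-107478400 (0.62, SE 0.38, adjusted p = 0.129, limma), the member nearest the window's end.

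The 11q24 cluster, mostly of the OR8 and OR10 families, rose along its whole length. Each of its 25 members was called higher, in an unbroken run from 123620201 to 124492400, with log2 fold changes between 0.85 and 1.92 and a median of 1.33. The density was 9.44 and 7.75 normalized counts per kb in the knockout and 3.44 and 3.50 in wild type, 2.48 times as high (2.21 to 2.74). Set against the rest of the autosomes this is 1.14 and 1.10 in knockout and 0.655 and 0.649 in wild type, a log2 difference of 0.78. The widest member, chr11:124354001-124492400, had 1286 and 1090 counts in the knockout, against 552 and 542 in wild type (1.11, SE 0.15, adjusted p = 1.75e-10, limma). The member chr11:124274001-124316000 had the most H2AK119ub and H3K27me3 per kb of the cluster in wild type. Its H3K27me3 was 526 and 462 in knockout and 204 and 224 in wild type (1.20, SE 0.16, adjusted p = 2.05e-10, limma). The largest change was in a short region of 2.4 kb, chr11:124258601-124261000, with 29 and 18 against 4 and 7 (1.92, SE 0.50, adjusted p = 0.000556, limma). The smallest, chr11:123757201-123763000, had 30 and 32 in knockout and 14 and 20 in wild type (0.85, SE 0.36, adjusted p = 0.0323, limma), and was not called under any of the 3 scalings.

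**Figure D3:**
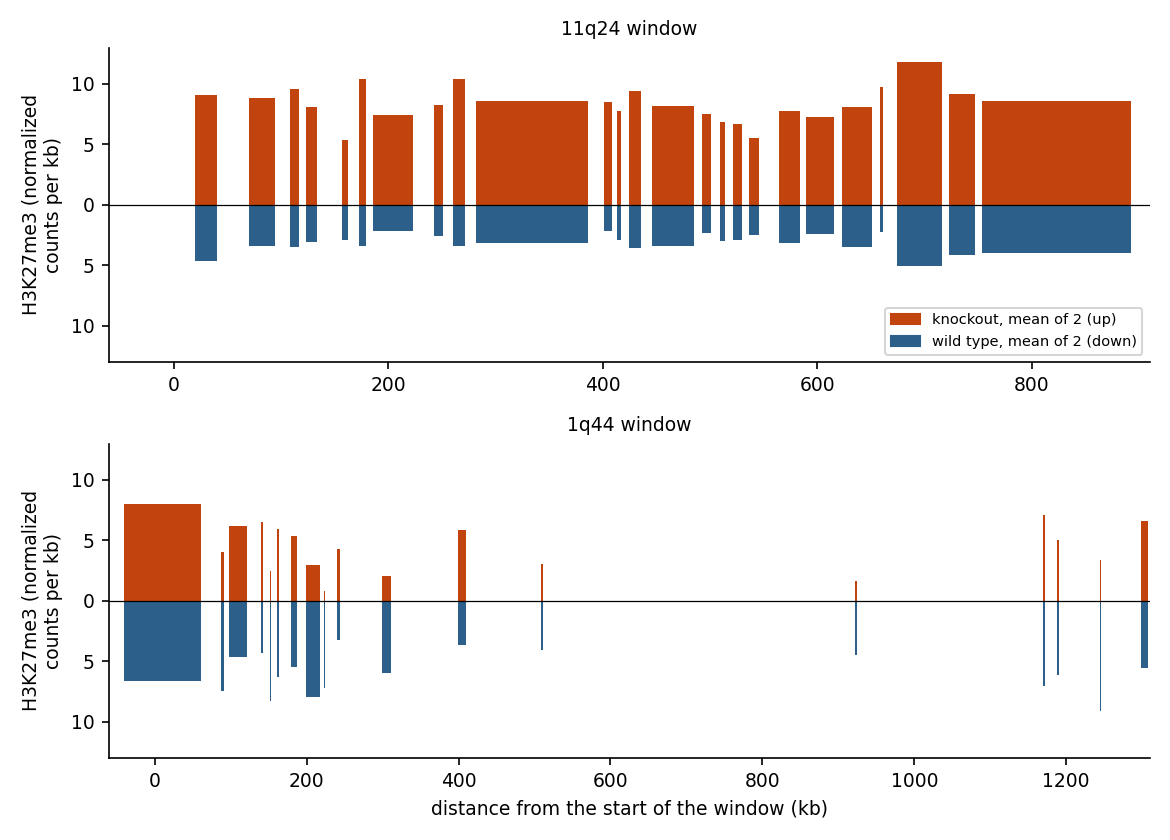
H3K27me3 in normalized counts per kb of each region along the 11q24 window (top) and the 1q44 window (bottom), by distance from the window's start in kb. Bars are as wide as the region, with the knockout mean of 2 drawn upward and the wild-type mean of 2 downward. At 11q24 the knockout bar is longer in all 25 regions, and at 1q44 the bars differ in both directions.

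The 17p13 cluster, of the OR1 and OR3 families, behaved alike at lower amplitude. All 14 members rose, with a median log2 fold change of 1.05 and a range of 0.47 to 1.31. Per kb there were 8.71 and 7.52 normalized counts in the knockout and 4.04 and 4.19 in wild type, 1.97 times as high (1.80 to 2.15). As a ratio to the rest of the autosomes it was 1.05 and 1.07 in knockout and 0.769 and 0.776 in wild type, a log2 difference of 0.46. The widest member, chr17:3086001-3120200, had 276 and 226 in the knockout and 87 and 125 in wild type (1.25, SE 0.18, adjusted p = 5.37e-09, limma). The largest change was 155 and 130 against 50 and 64 at chr17:3159201-3176200 (1.31, SE 0.21, adjusted p = 7.16e-08, limma). The densest member in wild-type H3K27me3, chr17:3280001-3291600, had 141 and 150 in knockout and 68 and 64 in wild type (1.13, SE 0.21, adjusted p = 1.17e-06, limma). The densest in wild-type H2AK119ub, chr17:3381801-3409600, had 234 and 180 against 124 and 131 (0.68, SE 0.18, adjusted p = 0.000669, limma), and was called neither under the 3 scalings nor without the mean-variance trend (adjusted p = 0.0531, limma). The smallest change was 137 and 108 against 83 and 93 at chr17:3335801-3351600 (0.47, SE 0.20, adjusted p = 0.0354, limma), and scaling turned its sign, to between -0.06 and -0.01. Without the trend its adjusted p was 0.143 (limma).

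The 11p15 cluster holds the human class I receptors (families OR51, OR52 and OR56), the class shared with fish, and some genes of other families such as TRIM. It had the most members, 45. Of the 42 tested 34 rose, 0 fell and 8 were not called, with a median of 1.12. At an unadjusted p under 0.05 the count of falls was also 0. The density was 7.96 and 6.53 normalized counts per kb in the knockout, against 3.39 and 3.37 in wild type, 2.14 times as high (1.93 to 2.36). Against the rest of the autosomes this was 0.964 and 0.929 in knockout and 0.646 and 0.626 in wild type, a log2 difference of 0.57. A run of 12 members called higher reached from 5516001 to 5971800. The widest member, chr11:4655601-4741400 (85.8 kb), had 694 and 496 in knockout and 271 and 283 in wild type (1.08, SE 0.16, adjusted p = 4.63e-09, limma). The largest change was at chr11:5809401-5814600, with 35 and 29 against 7 and 10 (1.81, SE 0.42, adjusted p = 0.000116, limma). At the other end, chr11:4768001-4770400 had 6 and 10 in knockout and 13 and 18 in wild type (-0.89, SE 0.51, adjusted p = 0.106, limma), and was called lower under the 3 scalings. The member densest in both marks in wild type, chr11:6116801-6118400, is 1.6 kb long and had 11 and 4 against 6 and 19, so the genotypes overlapped.

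The 11q12 cluster, with receptors of the OR5, OR9 and OR10 families, was more mixed. Of 31 members tested 21 rose, 1 fell and 9 were not called, and the median was 0.87. Its density was 7.52 and 5.95 in the knockout and 4.19 and 4.15 in wild type, 1.61 times as high (1.42 to 1.81). The ratios to the rest of the autosomes were 0.911 and 0.846 in knockout and 0.799 and 0.769 in wild type, a log2 difference of 0.16. The largest change was at chr11:57897801-57900600, with 16 and 22 normalized counts in knockout and 4 and 4 in wild type (1.98, SE 0.55, adjusted p = 0.00111, limma). The member that fell, chr11:58926801-58938600, was the densest of the cluster in wild-type H3K27me3. It had 81 and 70 in knockout and 142 and 86 in wild type (-0.55, SE 0.22, adjusted p = 0.0194, limma), and without the mean-variance trend its adjusted p was 0.166 (limma). The widest member, chr11:59180001-59228800, had 380 and 259 against 242 and 244 (0.37, SE 0.17, adjusted p = 0.0435, limma), and its sign turned under scaling, to between -0.16 and -0.11. Its adjusted p was also 0.0504 with a pseudocount of 0.5 and 0.274 without the trend (limma). The member densest in wild-type H2AK119ub of all 161, chr11:58194001-58195800, at 9.17 normalized counts per kb, was not tested for H3K27me3, with 6 and 2 in knockout and 9 and 22 in wild type.

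The members of 11p11, of the OR4 family, followed the general gain. Per kb there were 7.82 and 6.82 normalized counts in the knockout and 4.20 and 3.27 in wild type, and 3 of 4 members rose. The largest change was 97 and 85 against 45 and 28 at chr11:48231601-48244800 (1.33, SE 0.25, adjusted p = 2.47e-06, limma). The widest, chr11:48331001-48347400, had 160 and 132 in knockout and 81 and 57 in wild type (1.09, SE 0.21, adjusted p = 3.53e-06, limma). The member not called, chr11:48275601-48280200, had 29 and 35 against 20 and 26.

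RefSeq lists the most receptor symbols for 11q11-q12, 106 against 103 for 11p15, but fewer protein-coding ones (46 against 55). In 11q11-q12, 2 of the 9 members rose and 2 fell. The density was 7.36 and 5.27 in the knockout and 4.96 and 4.44 in wild type, 1.35 times as high (1.06 to 1.66). Relative to the rest of the autosomes it was 0.892 and 0.749 in the knockout and 0.944 and 0.822 in wild type, so the genotypes overlapped (exact permutation p = 0.667). The 2 that fell stood alone in the array. At chr11:55707801-55710200 there were 7 and 2 normalized counts in knockout and 18 and 16 in wild type (-1.88, SE 0.57, adjusted p = 0.00296, limma). At chr11:56430801-56433200 there were 5 and 2 against 17 and 14 (-1.95, SE 0.60, adjusted p = 0.00315, limma). The other 7 lay between 56609401 and 56808000, near the window's end. Of these chr11:56609401-56615200 had 63 and 39 in knockout and 22 and 26 in wild type (1.02, SE 0.31, adjusted p = 0.00231, limma), and chr11:56648001-56662000 had 104 and 95 against 65 and 55 (0.72, SE 0.22, adjusted p = 0.00286, limma). Neither was called under the 3 scalings. The member densest in wild-type H2AK119ub, chr11:56623601-56626200, had 17 and 20 against 9 and 11 (adjusted p = 0.0981, and 0.0277 without the mean-variance trend, limma).

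The 1q44 cluster, largely of the OR2 family, was the only one with regions where the H3K27me3 densities of the genotypes overlapped. Its density was 6.67 and 5.87 normalized counts per kb in the knockout and 5.97 and 6.30 in wild type, with overlap of the genotypes and a ratio of 1.02 (0.932 to 1.12 over pairs). Relative to the rest of the autosomes it was 0.807 and 0.835 in the knockout and 1.14 and 1.17 in wild type, a difference of -0.49 (exact permutation p = 0.33). Of 16 members tested 2 rose, 5 fell and 9 were not called, with a median of -0.15 (0.18 and -0.57 for knockout replicates 1 and 2). The largest fall was in a region of 1.8 kb, chr1:247822201-247824000, with 3 and 0 counts in knockout and 16 and 10 in wild type (-2.77, SE 0.76, adjusted p = 0.000952, limma). The densest in wild-type H3K27me3, chr1:248844201-248846400, had 12 and 3 against 19 and 21 (-1.54, SE 0.51, adjusted p = 0.0059, limma), and without the mean-variance trend its adjusted p was 0.0504 (limma). Larger falls in counts, chosen after their values were seen, were 52 and 53 against 136 and 150 at chr1:247799001-247817000 (adjusted p = 7.28e-09, limma) and 20 and 26 against 71 and 63 at chr1:247899401-247910600 (adjusted p = 2.99e-06, limma).

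Most of the H3K27me3 of 1q44 lay in 1 member that spans the window's start. The window's sums, 1417 and 1249 in knockout and 1270 and 1340 in wild type, include it, and the ratio of 1.02 rests on it. Apart from this member, the sums were lower in both knockout libraries than in both wild-type libraries. This region of 102 kb, chr1:247559801-247661400, had 837 and 798 normalized counts in knockout and 643 and 700 in wild type (0.28, SE 0.15, adjusted p = 0.0765, limma). It was not called as deposited, and under each scaling it was called lower, with log2 fold changes between -0.24 and -0.19. The largest rise of the window was 70 and 47 against 30 and 44 at chr1:247999601-248009600 (0.64, SE 0.27, adjusted p = 0.0299, limma), which was called neither under the 3 scalings nor without the trend (adjusted p = 0.121, limma). The member densest in wild-type H2AK119ub, chr1:248788001-248790200, had 14 and 8 in knockout and 18 and 9 in wild type, with overlap. Regions that rose, fell or were not called were interspersed along the window, and no 4 neighbours shared a call.

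**Figure D4:**
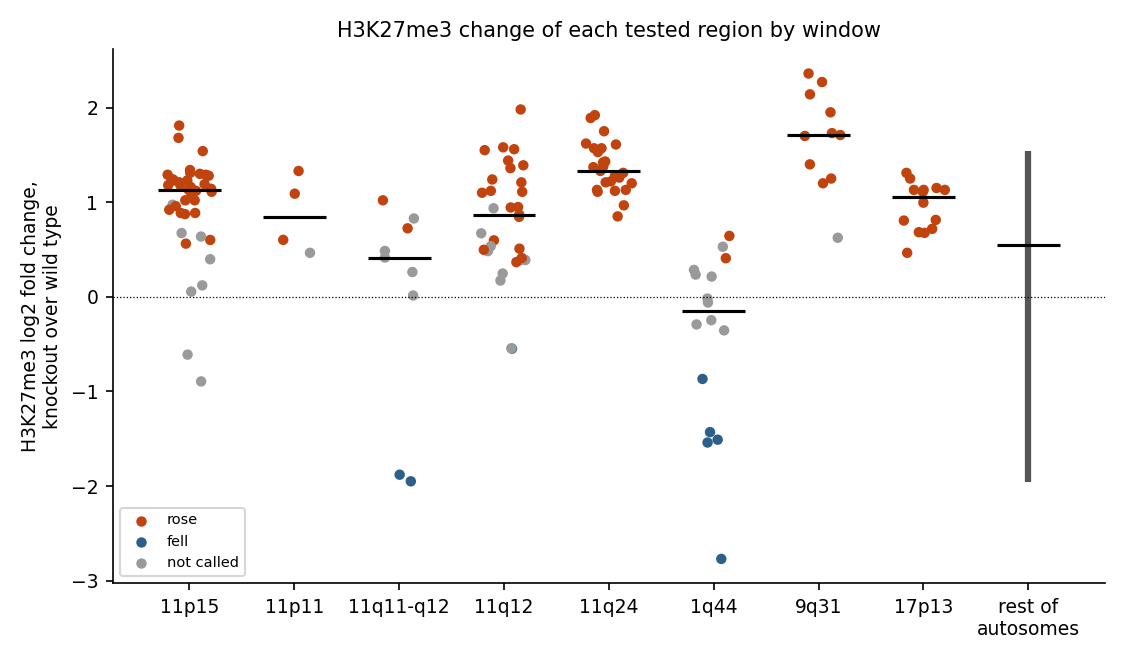
H3K27me3 log2 fold change, knockout over wild type (vertical axis), of each of the 152 tested members by window. Points are regions coloured by call, black lines are medians, and the grey bar spans the 10th to 90th percentile of the rest of the autosomes with its median of 0.55. All points of 11p11, 11q24, 9q31 and 17p13 lie above 0, and 5 of the 8 regions that fell belong to 1q44.

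The size of the change went with the wild-type level. Every region of the table was placed in 1 of 5 equal groups by its wild-type H2AK119ub per kb. The group with the least held 67 of the 161 members (41.6%), and the next groups held 42, 29, 18 and 5. The members' median H3K27me3 log2 fold change was 1.13 in the lowest group, then 1.19, 0.78, 0.21 and 0.14. In the rest of the autosomes the medians were 1.22, 1.00, 0.65, -0.07 and -0.93. From the lowest group up, 85.7%, 83.3%, 69.2%, 17.6% and 25% of tested members rose, against 76.1%, 69.7%, 51.3%, 26.2% and 10.3% of other regions. The top 2 groups rest on 17 and 4 tested members, and no difference within a group was tested. Ranked by wild-type H3K27me3 per kb, the groups held 40, 61, 34, 16 and 10 members. Their medians were 1.42, 1.14, 0.53, 0.15 and -1.15, against 1.5, 1.03, 0.48, -0.48 and -0.94 in the rest of the autosomes. Wild-type H3K27me3 enters the change itself, so the second ranking favours this order.

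**Figure D5:**
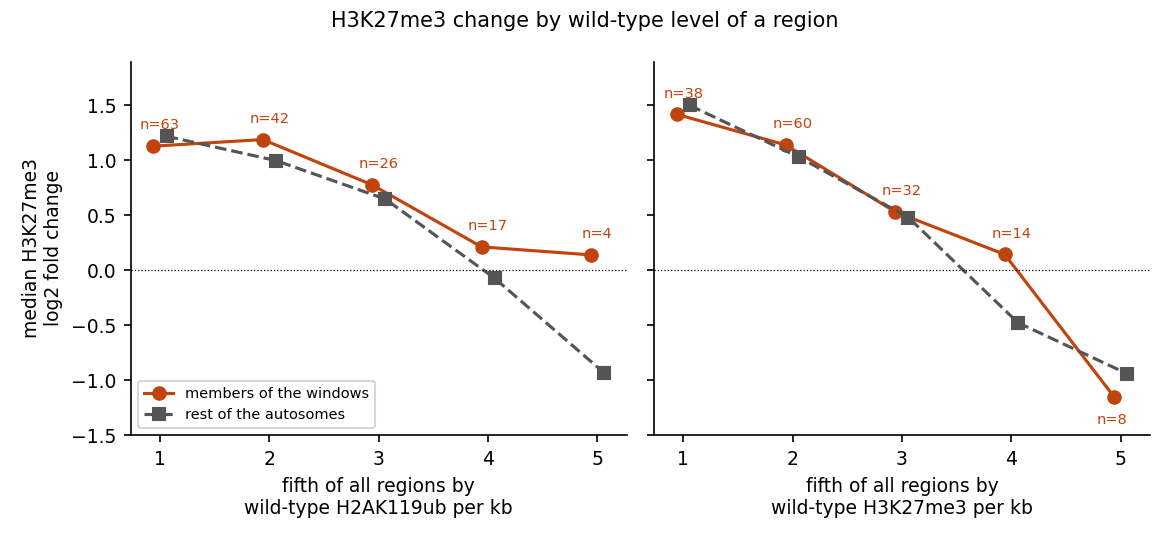
Median H3K27me3 log2 fold change (vertical axis) of members (orange, with the number tested) and of the rest of the autosomes (grey squares) in 5 equal groups of all regions, ranked by wild-type H2AK119ub per kb (left) and by wild-type H3K27me3 per kb (right). Both are lower in the highest group than in the lowest. On the left they go from 1.13 to 0.14 for members, with 1.19 in the second group, and from 1.22 to -0.93 for other regions.

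Members were thus concentrated where both marks were low in wild type and H3K27me3 was not low in the knockout. The median member was at the 28.5th percentile of all regions in wild-type H3K27me3 per kb and at the 61st percentile in the knockout. The medians were 7.08 normalized counts per kb in the knockout and 3.52 in wild type, against 6.44 and 4.89 over all regions. Across the 152 tested members, which are not independent, Spearman's rho between wild-type H2AK119ub per kb and the H3K27me3 change was -0.380. Between the marks in wild type it was 0.372 over members and 0.671 over all regions, and these values share the libraries and the width of a region. Among the clusters, 1q44 had the most of both marks in wild type and showed no net gain. The 9q31 cluster had the least wild-type H3K27me3 and gained most, but that level enters the gain itself. In wild-type H2AK119ub 9q31 was not the lowest, with a mean of 2.35 normalized counts per kb against 2.18 at 11p15 and 2.21 at 17p13.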

How the data were processed

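ChIP-seq of H2AK119ub and H3K27me3 was available for 8 HAP1 libraries, 2 per mark and genotype. The deposited values used are normalized counts per region, a whole-number score which, per the file headers, the authors had normalized. Their normalization and region calling are not given in the sources used here, and the fly spike-in of the protocol is described for DLD1 cells. Per the submitters' processing notes the tools were Bowtie2, SAMtools, Picard, bedtools and deepTools, on hg19. Sequencing depth is unknown; totals over the regions ran from 17159 to 3788824, so low regions are the least precise.

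Each mark was fitted apart on the whole table with limma 3.58.1 (R 4.3.3) with its trend option, on log2 of the normalized count plus a pseudocount of 1, with Benjamini-Hochberg adjustment at 0.05 and no rescaling. This scale understates changes of low regions. The fit shares its estimate of spread across regions. A region was tested if 2 libraries reached 10 and the sum reached 15, and the step was tested on simulated data. Library-level values used exact permutation tests. Positions are 1-based hg19.

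Windows, comparisons and rules were chosen with earlier results of these data known. Named regions are, per window, those with the largest and smallest H3K27me3 change, the highest wild-type level per kb of each mark and the greatest width. Replicate numbers were not used to pair the samples, since the labels do not state a pairing. Alternatives were other pseudocounts, no filter, 3 scalings, a replicate block, no trend, other overlap rules and leaving out libraries or windows.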

Additional observations from a re-analysis of the deposited data

How the results depend on the processing

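On the values as deposited, 105 members fell in H2AK119ub and 111 rose and 8 fell in H3K27me3 (limma, Benjamini-Hochberg adjustment). With column totals, median-of-ratios and TMM factors the H2AK119ub falls numbered 10156, 10425 and 11113 over all regions and 50, 50 and 50 among members. The H3K27me3 rises numbered 9614 and 9860 over all regions with the first 2 factors, and 68, 68 and 70 among members with all 3. The members' median log2 fold change was then 0.573, 0.591 and 0.621. The regions where the knockout effect on H3K27me3 exceeded that on H2AK119ub numbered 14282, 14725 and 15847, with 75, 75 and 83 members. In the opposite direction 1402, 954 and 572 regions were called, with 2, 1 and 1 members. Under the same 3 factors the sign turned in 3 named regions: chr11:59180001-59228800 (-0.159, -0.141 and -0.110), chr17:3335801-3351600 (-0.0579, -0.0398 and -0.00931) and chr1:247559801-247661400 (-0.243, -0.225 and -0.194). It also turned with the first 2 factors in chr11:48275601-48280200 (-0.0433 and -0.0257, and 0.00403 with TMM factors), which was not called in any of these fits.

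With 1 library left out, H2AK119ub falls ranged between 12382 and 23686 over all regions and between 59 and 105 among members. H3K27me3 rises ranged between 0 and 8148 over all regions and between 0 and 58 among members, and falls between 0 and 4262 and between 0 and 6. For H3K27me3 the fit's prior degrees of freedom were 1.40 without a wild-type library and 1.09 without a knockout library, against 106.7 with all libraries. Of 25 named regions called for H3K27me3, 15 were no longer called without knockout replicate 1, 16 without knockout replicate 2 and all 25 without wild-type replicate 1 or wild-type replicate 2. None of these 25 changed sign. The 2 named regions whose sign turned in such a fit, chr11:6116801-6118400 and chr1:248788001-248790200, were not called with all libraries.

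The ratio of regions per Mb was 1.11, and 0.909 against the rest of chromosome 11 only and 1.5 without the 11p11 window. As shares of the library total, the summed log2 changes were 0.263 for H2AK119ub, against -6.24 as deposited, and 0.419 for H3K27me3, against 0.953. A share cannot show a loss common to all regions. With regions wholly inside the windows, the H3K27me3 difference relative to the rest of the autosomes was 0.485, against 0.429. The other pseudocounts, the missing filter and the missing trend kept the counts of members within 1.5 times. The size of small p-values did rest on the trend. Without it the smallest adjusted p of any region for H3K27me3 was 0.00183, against 1.22e-40 with it (limma). At chr11:124354001-124492400 it was 0.01, against 1.75e-10 (limma). The labels do not say that replicate numbers pair the samples. Deviations of the same number were nearly uncorrelated between genotypes (correlation -0.000149 for H2AK119ub and 0.0112 for H3K27me3). For H2AK119ub the knockout values are too low for this check to decide. With the replicate block 107 members rose and 8 fell in H3K27me3, 105 fell in H2AK119ub and 150 responded differently in the marks. Among named regions the block ended 1 call, at chr11:59180001-59228800 (adjusted p = 0.0945, limma).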
